A study of Mus musculus with 6 samples.

Results

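Mitogen-activated protein kinase (MAP kinase) genes, the kinases above them and the dual-specificity phosphatases were read on 6 single-colour mouse arrays. The genes were taken by name, as every probe whose symbol in the platform's probe table starts with Mapk, Map2k, Map3k, Map4k or Dusp. That gave 51 of 10076 probes and 50 of 8841 genes, with Dusp8 on 2 probes. All arrays held total RNA of thioglycollate-elicited macrophages from female C57BL/6 mice aged 6 weeks, and no group carried a genetic change. Each of the 6 groups had 1 array. Cells went without LPS in the groups No treatment and TSA. They received LPS in the other 4, alone, with TSA (TSA + LPS), with GW3965 (GW3965 + LPS) or with both further agents (TSA + GW3965 + LPS). LPS is bacterial lipopolysaccharide, sensed by Toll-like receptor 4, TSA (trichostatin A) inhibits histone deacetylases, and GW3965 is a synthetic agonist of the liver X receptors. The labels give no dose or time and do not name the mouse or culture behind a sample. No group has a replicate, so the p-values measure no spread between mice or cultures. They rest on how far these arrays depart from effects that simply add, with the variance shared over genes. Such departures may be technical or may come from agents that change each other's effects. The study asked how TSA alters the induction of inflammatory genes by LPS.

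In a MAP kinase cascade a MAP3K phosphorylates a MAP2K, and the MAP2K phosphorylates a MAP kinase of the ERK, JNK or p38 group. Dual-specificity phosphatases (Dusp) remove the phosphates from both the threonine and the tyrosine of the activation loop, and many are themselves transcribed when the cascade is active. In macrophages, Toll-like receptor signalling runs through these cascades to cytokine transcription and, through p38 and its substrate kinase MK2, to cytokine mRNA stability. The arrays measure mRNA, not kinase activity.

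Values are the authors' intensities, in linear units in which the median probe of each array lies between 0.981 and 0.987. The 26 genes that reached the array median on at least 1 array (52% of the 50, against 57.5% of all genes) entered the tests. Of these, 18 were at or above the median on all 6 arrays. The other 24 stayed below the median on all 6 arrays and are described at the end of the results. Every effect is a log2 difference with its standard error (SE) from one additive limma fit to the 5080 genes tested, averaged over 2 pairs of arrays for LPS, 3 for TSA and 2 for GW3965, with Benjamini-Hochberg adjustment over all 5080. A gene is said to have risen or fallen where its adjusted p was under 0.05. Since each level comes from 1 array, single levels have no SD. The samples are bulk RNA, so that fewer cells of a type and less RNA per cell cannot be told apart.

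The labelled cell type was checked against its markers. Of 8 macrophage markers on the array, 7 were at or above the median on all 6 arrays, and Adgre1, the F4/80 antigen, was so on 5. The summed level of the 8 was 802 to 1141 units without LPS and 1059 to 1353 units with it. Most of the sum was Lyz2, at 729 to 1050 units. Cd14, which LPS itself raised, read 21.6 and 29.2 without LPS and 167 to 351 with it. Among 8 neutrophil markers only S100a8, a granulocyte and monocyte calcium-binding protein, was at or above the median on every array, and Mpo was below the floor on all 6. The floor is each array's 25th percentile, 0.198 to 0.245 units, at which lower readings were set. Some markers listed for other cell types also reached the median on all 6 arrays. They included 3 of 5 B cell markers, 2 of 6 mast cell markers and 2 of 8 fibroblast and mesothelial markers. Of 4 NK cell markers 1 did so, Gzma at 21.3 to 39.6 units, and the other 3 were below the median on every array.

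Promoters of 44 of the 50 genes were matched by symbol in RefSeq (GRCm38.p6). None was matched for Dusp19, Dusp4, Map3k2, Map3k8, Map4k4 and Mapk8ip1. Sequences are shown for genes whose levels the results turn on: Mapkapk2 and Map2k1, which rose with LPS, Dusp13, which fell with LPS and with TSA, Map2k3, which fell with TSA, and Dusp1, the inducible phosphatase for which no effect passed. They run 5′ to 3′ on the gene's strand up to its annotated first base, which leaves 222 of the 250 upstream bases for Mapkapk2 and 221 for Dusp13. The capitals mark matches to an AP-1 element (TGANTCA), a cyclic AMP response element (CRE, TGACGTCA) or a GC box (GGGCGG), on either strand.
Mapkapk2, chr1:131097872-131098093, minus strand: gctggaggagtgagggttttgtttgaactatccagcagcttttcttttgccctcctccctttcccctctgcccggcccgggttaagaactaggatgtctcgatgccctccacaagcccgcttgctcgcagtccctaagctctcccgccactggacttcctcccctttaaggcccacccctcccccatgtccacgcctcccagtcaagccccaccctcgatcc
Map2k1, chr9:64253606-64253855, minus strand: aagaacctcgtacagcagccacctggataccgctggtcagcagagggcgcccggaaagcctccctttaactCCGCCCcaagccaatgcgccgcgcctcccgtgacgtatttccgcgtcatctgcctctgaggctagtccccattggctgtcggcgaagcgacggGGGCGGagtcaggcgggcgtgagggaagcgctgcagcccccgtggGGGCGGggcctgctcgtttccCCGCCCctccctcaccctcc
Dusp13, chr14:21748652-21748872, minus strand: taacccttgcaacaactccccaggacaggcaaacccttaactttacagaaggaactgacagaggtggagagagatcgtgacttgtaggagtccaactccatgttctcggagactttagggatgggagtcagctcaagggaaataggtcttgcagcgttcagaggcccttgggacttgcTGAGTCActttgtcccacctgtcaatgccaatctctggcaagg
Map2k3, chr11:60931804-60932053, plus strand: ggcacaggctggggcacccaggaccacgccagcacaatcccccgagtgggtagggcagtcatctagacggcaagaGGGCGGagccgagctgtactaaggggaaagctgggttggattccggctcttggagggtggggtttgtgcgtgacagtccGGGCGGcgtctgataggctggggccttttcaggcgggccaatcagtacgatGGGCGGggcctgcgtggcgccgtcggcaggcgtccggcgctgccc
Dusp1, chr17:26508473-26508722, minus strand: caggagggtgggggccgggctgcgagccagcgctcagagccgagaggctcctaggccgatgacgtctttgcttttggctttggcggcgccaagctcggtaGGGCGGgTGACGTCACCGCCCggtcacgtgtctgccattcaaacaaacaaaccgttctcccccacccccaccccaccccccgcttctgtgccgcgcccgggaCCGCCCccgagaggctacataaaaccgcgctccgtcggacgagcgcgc
The Mapkapk2 stretch held no match, Map2k1 held 4 GC boxes, Dusp13 1 AP-1 element and no GC box, Map2k3 3 GC boxes, and Dusp1 1 CRE directly followed by 1 of its 3 GC boxes. Counted from the start site that closes the 250-base window, the Dusp13 AP-1 element lay 72 to 66 bases upstream. The Dusp1 CRE lay 143 to 136 bases upstream of its own start site. For Dusp13 that site lay 29 bases inside the annotated gene, beyond the end of the printed stretch. Over the 250 bases before the start, an AP-1 element was found in 2 of the 44 promoters (4.55%, Dusp13 and Map2k6) and in 6.75% of 32851 promoters of all genes. A CRE was found in 3 (6.82%, Dusp1, Dusp8 and Mapk10), against 1.55% of all promoters. A GC box was found in 30 (68.2%), against 32.7% of all promoters and 42.6% of the 21263 protein-coding ones. An NF-kB motif, searched by name, was found in 2 (4.55%, Dusp22 and Map3k7), against 3.90%. Of the 5 genes that rose with LPS and had a promoter, 3 held a GC box and 0 held an AP-1, CRE or NF-kB match. These matches describe letters in a window and show no binding.

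At each kinase tier from MAP3K to MAP kinase LPS raised some tested genes but not others, and it lowered 1 MAP4K gene. It raised 1 of 3 MAP3K genes. At the MAP kinase tier it raised only the atypical Mapk6, while Mapk7, Mapk9 and Mapk14 did not pass. Of the 26 tested genes 7 rose, 2 fell and 17 did not pass, which is 34.6% called, against 19.4% of all 5080 genes (12.3% rose and 7.11% fell). The risen genes were the p38 substrate kinase Mapkapk2, the phosphatases Dusp4 and Dusp28, the MAP2Ks Map2k1 and Map2k4, the MAP3K Map3k8 and the atypical MAP kinase Mapk6. The fallen genes were Map4k1 and Dusp13. The median LPS effect was 0.26 over the 26 genes and 0.03 over all genes tested, and 11 of the 26 had an unadjusted p under 0.05. The 4 arrays with LPS all lay above both arrays without it for 9 of the genes (19.4% of all genes) and all below for 4 (14.0% of all genes). The summed neutrophil markers were also higher on the arrays with LPS, 52.8 to 82.3 units against 24.9 to 34.6. Most of that sum was S100a8 (47.2 to 78.8 against 22 and 31.8). Camp was higher with LPS too (0.834 to 2.54 against 0.0692 and 0.172). Ltf went the other way, 0.306 to 0.435 with LPS against 0.771 and 1.11, and the other neutrophil markers overlapped. Mast cell markers summed to 18.5 to 21.8 units with LPS against 13.8 to 15.1, mostly Tpsb2, fibroblast and mesothelial markers to 15.2 to 16.5 against 9.79 to 14.7, mostly Dcn, and B cell markers to 8.62 to 10.1 against 8.1 to 8.58. Among the fibroblast and mesothelial markers Krt19 went the other way, 0.38 to 0.518 with LPS against 0.78 and 1.16. Wt1 did so too, 0.185 to 0.22 against 0.298 and 0.306, and Msln was below the floor on all 6 arrays. The T cell marker sum was lower with LPS, 27.1 to 35.3 units against 38.2 to 43.7, almost all of it Il7r. Cd28 was lower too (0.117 to 0.274 against 0.298 and 0.414) but below the median on all 6 arrays. Cd3d went the other way, 0.908 to 1.65 with LPS against 0.692 and 0.744, and Cd3e and Cd8a were below the floor on all 6 arrays. The part of these in the LPS results was not tested.

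**Figure D1:**
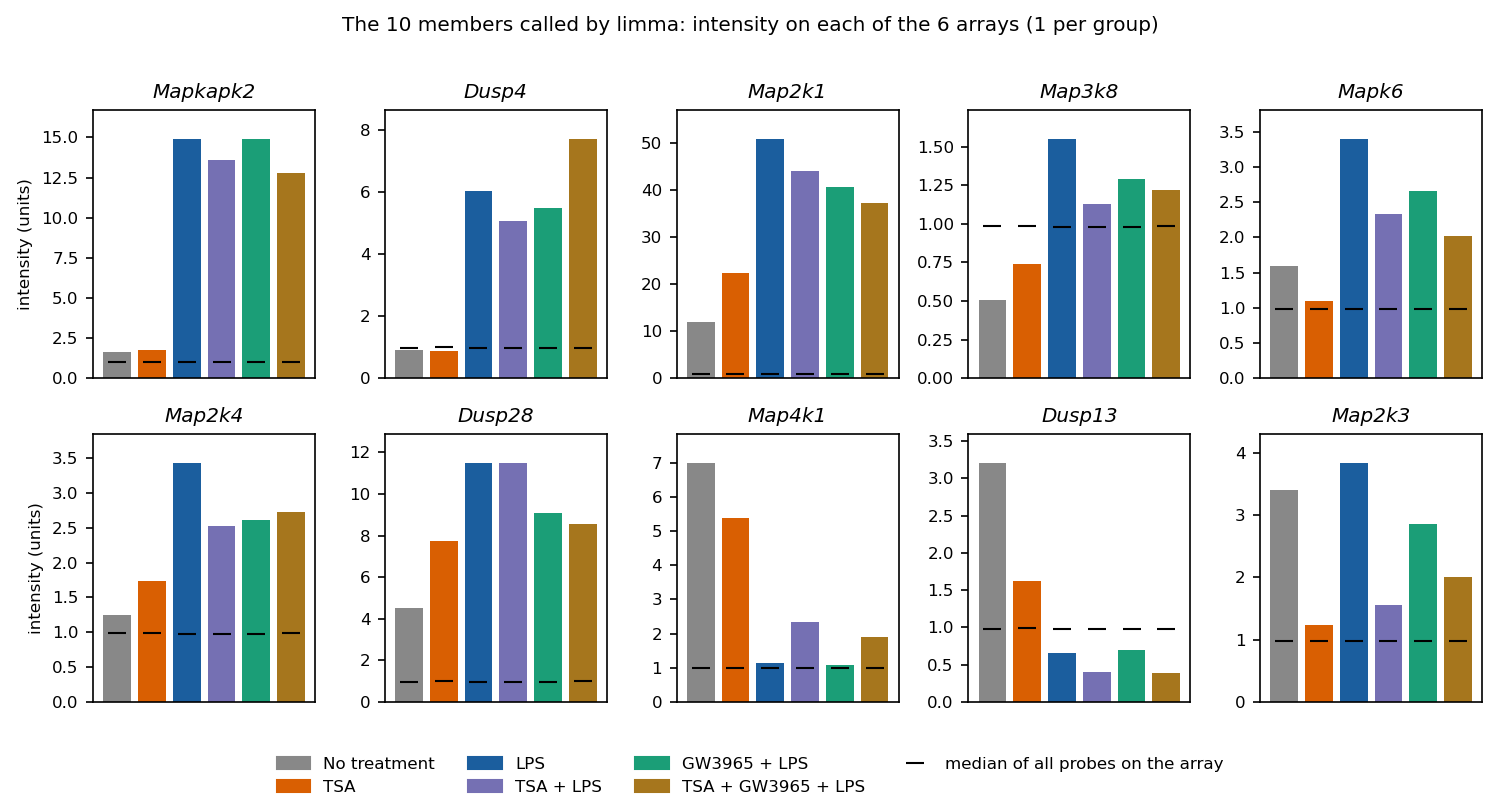
Intensity (linear units, each panel with its own axis from 0) of the 10 genes called for LPS or TSA on each of the 6 arrays, 1 bar per array with no error bar, since each group has 1 array. Mapkapk2 and Dusp4 were low on both arrays without LPS and high on all 4 with it, Dusp13 and Map4k1 were the opposite, and Map2k3 was lower on each array with TSA than on its partner without.

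Mapkapk2 encodes MK2, the kinase that p38 activates and that acts on the RNA-binding protein tristetraprolin to stabilise cytokine mRNAs. Its intensity was 1.65 without treatment and 1.76 with TSA alone. With LPS it was 14.9, with TSA + LPS 13.6, with GW3965 + LPS 14.9 and with all 3 agents 12.8. The 4 LPS arrays did not overlap the other 2 and lay close together. Its LPS effect of 3.06 (SE 0.26), 8.35-fold, had an adjusted p of 2.13e-08 in limma, and the single pairs gave 2.95 and 3.18. The related kinase gene Mapkapk5 did not pass and read 10.3 to 14.4 on the 6 arrays.

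Dusp4, a nuclear phosphatase of ERK and JNK, read 0.9 without treatment and 0.861 with TSA, both below the array median. It read 6.02 with LPS, 5.06 with TSA + LPS, 5.47 with GW3965 + LPS and 7.7 with all 3 agents. The groups with and without LPS did not overlap, and the LPS effect was 2.65 (SE 0.27, 6.27-fold, limma adjusted p = 4.31e-07). Dusp1, the other nuclear inducible phosphatase on the array, known as an early brake on p38 and JNK, showed no such separation. It read 2.98 without treatment, 1.58 with TSA, 2.58 with LPS, 2.33 with TSA + LPS, 2.47 with GW3965 + LPS and 1.82 with all 3 agents. The untreated array was its highest, and its LPS effect of 0.18 (SE 0.28, limma adjusted p = 0.75) did not pass.

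Dusp6, the cytoplasmic phosphatase directed at ERK, had groups that overlapped. It read 0.921 without treatment and 1.3 with TSA, against 1.94 with LPS, 0.926 with TSA + LPS, 1.81 with GW3965 + LPS and 2.35 with all 3 agents. It was 2.1-fold higher with LPS than without treatment, while in the presence of TSA it was 1.41-fold lower with LPS than without. The mean effect of 0.29 (SE 0.35, limma adjusted p = 0.652) did not pass. Dusp28, an atypical phosphatase without the kinase-binding domain of the classical members, read 4.5 without treatment and 7.76 with TSA. On the LPS arrays it read 8.55 to 11.5, and its effect of 0.96 (SE 0.28, 1.94-fold, limma adjusted p = 0.0181) passed.

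In the ERK branch, Map2k1 encodes MEK1, a MAP2K of the ERK branch. Its probe read 12 without treatment and 22.3 with TSA. It read 50.8 with LPS, 44 with TSA + LPS, 40.7 with GW3965 + LPS and 37.2 with all 3 agents, so that every LPS array was above both others. The effect was 1.53 (SE 0.28, 2.89-fold, limma adjusted p = 0.000436), and the pairs differed, with 4.23-fold in the absence of TSA and 1.97-fold in its presence. Leaving out the No treatment array gave 1.0 for the effect, with an adjusted p of 0.0322, the highest over 15 other settings, and leaving out any other single array or changing another setting gave up to 2.06. Map2k2, which encodes the closely related MEK2, read 16.8 and 10.8 without LPS and 13.5 to 24.1 with it. These overlapped, and its effect of 0.42 (SE 0.26, limma adjusted p = 0.315) did not pass.

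Map3k8 encodes Tpl2, the MAP3K that Toll-like receptor 4 uses to reach MEK1 in macrophages. It read 0.507 without treatment and 0.741 with TSA, below the array median on both, against 1.55 with LPS, 1.13 with TSA + LPS, 1.29 with GW3965 + LPS and 1.22 with all 3 agents. The groups did not overlap, and the effect was 1.11 (SE 0.33, 2.15-fold, limma adjusted p = 0.0217). Mapk6, the atypical kinase ERK3, read 1.6 and 1.09 without LPS and 2.02 to 3.4 with it. Both pairs gave 1.09 (SE 0.27, 2.13-fold, limma adjusted p = 0.00625). Mapk7, which encodes ERK5, read 2.59 and 3.06 without LPS and 1.54 to 2.19 with it, and its effect of -0.38 (SE 0.27, limma adjusted p = 0.399) did not pass although the groups did not overlap.

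In the JNK and p38 branches 1 of the 4 tested kinases of the lower tiers rose with LPS. Map2k4 encodes MKK4, an activator of JNK, and read 1.25 without treatment, 1.73 with TSA, 3.43 with LPS, 2.52 with TSA + LPS, 2.61 with GW3965 + LPS and 2.72 with all 3 agents. All LPS arrays were above both others, and its effect was 1.0 (SE 0.29, 2-fold, limma adjusted p = 0.0176). Map2k3, encoding the p38 activator MKK3, had an LPS effect of 0.26 (SE 0.29, limma adjusted p = 0.621). Mapk14, the p38 alpha gene, had an effect of 0.24 (SE 0.30, adjusted p = 0.669), and Mapk9, which encodes JNK2, of 0.10 (SE 0.28, adjusted p = 0.87), so neither passed.

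Map3k5, which encodes ASK1, a MAP3K activated by oxidative stress, lay just outside the threshold. It read 0.745 without treatment, 0.704 with TSA, 2.22 with LPS, 0.933 with TSA + LPS, 1.38 with GW3965 + LPS and 2.23 with all 3 agents. Every LPS array was above both others, but TSA + LPS lay near them, and the effect of 0.99 (SE 0.37) had a limma adjusted p of 0.0698. It passed with no filter (0.0301), without the TSA + LPS array (1.77, adjusted p = 1.13e-05), without GW3965 + LPS (0.0238) and without TSA + GW3965 + LPS (0.0264), and was 0.21 (adjusted p = 0.746) without the LPS array. Map3k12, a MAP3K best known from neurons, read 2.07 without treatment and 3.77 with TSA against 1.55 to 2.38 with LPS. Its effect of -0.65 (SE 0.31, limma adjusted p = 0.157) did not pass, and the pairs gave -0.02 without TSA and -1.28 with it. Without the LPS array the effect was -1.07 and passed (adjusted p = 0.00478), and without the TSA array it was -0.12 (adjusted p = 0.939).

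Map4k1 encodes HPK1, a kinase of blood cells that acts above the MAP3Ks. It read 6.99 without treatment and 5.38 with TSA. On the LPS arrays it read 1.15 with LPS, 2.33 with TSA + LPS, 1.09 with GW3965 + LPS and 1.89 with all 3 agents, all below both others. The T cell marker sum, almost all Il7r, was also lower with LPS, and its part in the Map4k1 result was not tested. The effect was -1.91 (SE 0.32, limma adjusted p = 0.000149), a 3.75-fold drop. It was -1.26 (adjusted p = 0.04, the highest over 15 other settings) without the No treatment array. Dusp13, an atypical phosphatase best known from testis and muscle, read 3.21 without treatment and 1.62 with TSA. It read 0.658, 0.402, 0.704 and 0.388 with LPS, TSA + LPS, GW3965 + LPS and all 3 agents, below the array median each time. The effect was -2.15 (SE 0.32, limma adjusted p = 4.84e-05), a 4.44-fold drop, and -1.22 with the floor raised to the median. The JNK and p38 phosphatase Dusp8, on the brighter of its 2 probes, read 1.01 and 1.03 without LPS and 1.05 to 1.42 with it and did not pass.

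**Figure D2:**
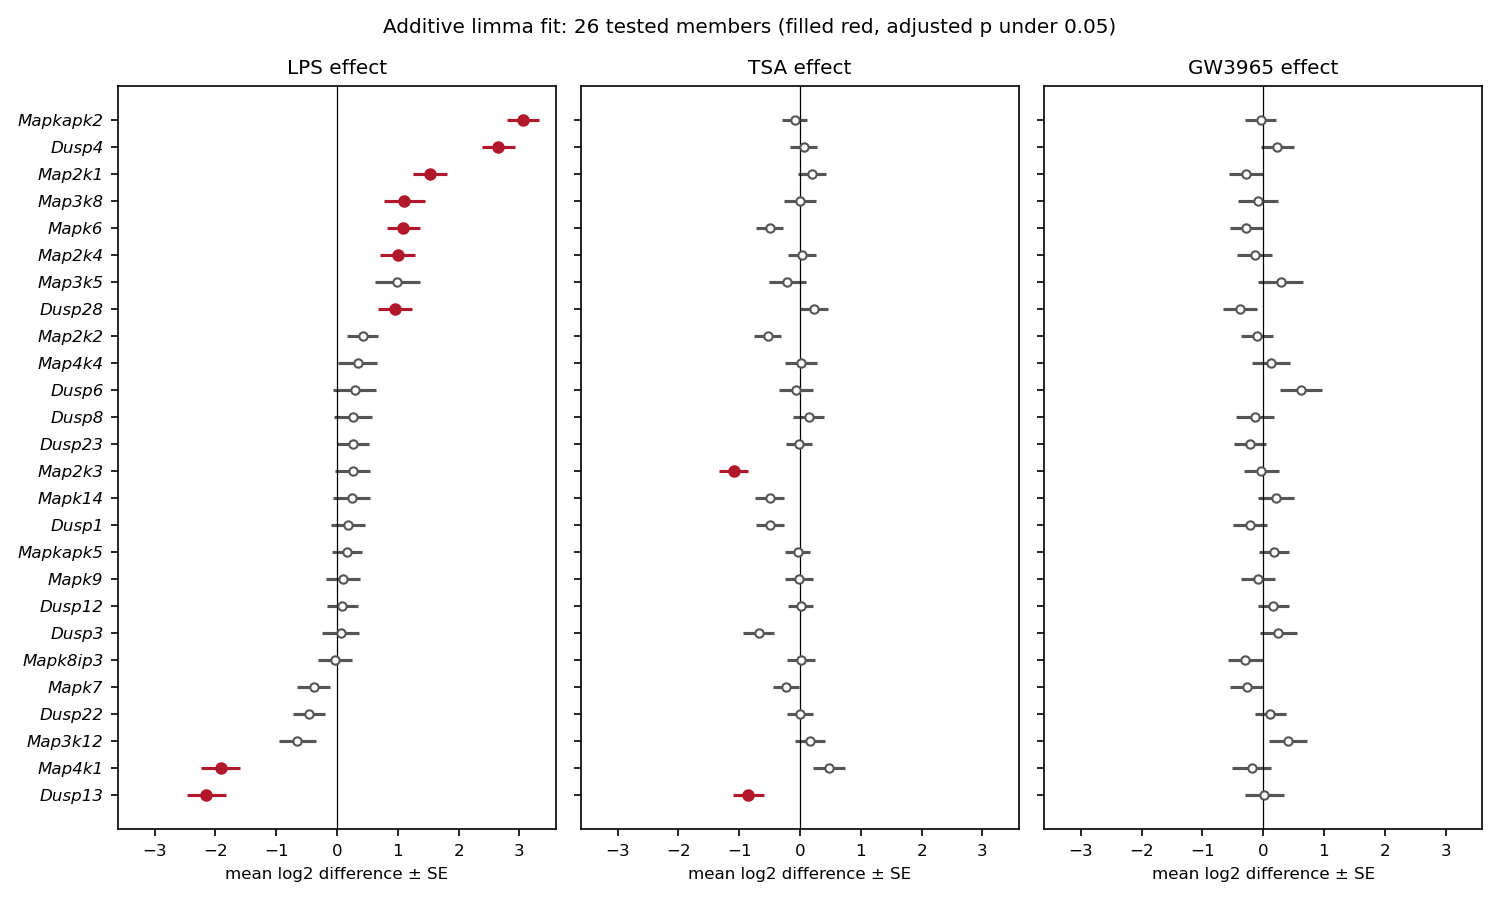
Mean log2 difference (horizontal axis, log2 scale) with its SE for the effect of LPS, TSA and GW3965 in each of the 26 tested genes, from the additive limma fit, with filled red points where the adjusted p was under 0.05. In the LPS panel 7 genes lie to the right and 2 to the left as called, in the TSA panel 2 lie to the left, and in the GW3965 panel 0 are called.

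The effects of Mapkapk2, Dusp4, Map2k1, Map4k1 and Dusp13 passed for LPS under each of 15 other settings. Dusp28, Map2k4 and Map3k8 did not pass without the LPS array (adjusted p 0.0608, 0.134 and 0.189), without the No treatment array (0.445, 0.406 and 0.46) or with the floor at the median (0.0703, 0.0624 and 0.153). With the floor at the median the effects of Dusp28 and Map2k4 were as large as before (0.96 and 1.0) and that of Map3k8 was 0.42. Without the LPS array the 3 effects were 0.78, 0.65 and 0.76, and without the No treatment array 0.54, 0.67 and 0.70. Mapk6 did not pass without the No treatment array (1.13, adjusted p 0.0758) or without the TSA array (1.05, adjusted p 0.0795), where its effect was about as large as in the full fit. Over all settings the adjusted p ranged from 0.00212 to 0.445 for Dusp28, 0.000198 to 0.406 for Map2k4, 0.00202 to 0.46 for Map3k8 and 0.00329 to 0.0795 for Mapk6.

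The LPS response was then read separately without and with TSA, from 1 pair of arrays each and without a test. Between LPS and No treatment, 26 of the genes were measured, meaning that the brighter array reached its median. Of these 9 were at least 2-fold higher with LPS (14.0% of all genes measured) and 2 lower (6.05% of all genes). In the presence of TSA, between TSA + LPS and TSA, 24 were measured, of which 3 were at least 2-fold higher (9.20% of all genes) and 3 lower (6.37% of all genes). Mapkapk2, Dusp4 and Mapk6 were at least 2-fold higher in both pairs, and Map4k1 and Dusp13 at least 2-fold lower in both. Map2k1, Map2k4, Map3k8, Map3k5, Dusp6 and Dusp28 were past 2-fold only in the pair without TSA, and Map3k12 only in the pair with it. Map3k5 was below the median on both arrays of the pair with TSA and so not measured there. Map3k8, for example, was 3.05-fold higher with LPS without TSA and 1.52-fold higher with TSA, and Map2k4 was 2.74-fold and 1.46-fold higher.

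Whether the TSA effect differed with and without LPS was tested as an interaction, which leaves 1 residual degree of freedom. Its prior degrees of freedom were infinite, so the variance of each gene was taken wholly from the genes tested together. Limma called 0 of the 26 genes, against 0.236% of all genes, and 2 of the 26 had an unadjusted p under 0.05. These were Map2k1, with a difference of -1.06 (SE 0.45, adjusted p = 0.76), and Map4k1, with 1.28 (SE 0.56, adjusted p = 0.831). For Map3k12 the difference was -1.06 (SE 0.57, adjusted p = 1) and for Map3k5 -0.20 (SE 0.62, adjusted p = 1). The tested difference also averages in the pair with GW3965 and LPS, so it is not the gap between the pairs described above. Those gaps are values of single arrays and were not tested by themselves.

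**Figure D3:**
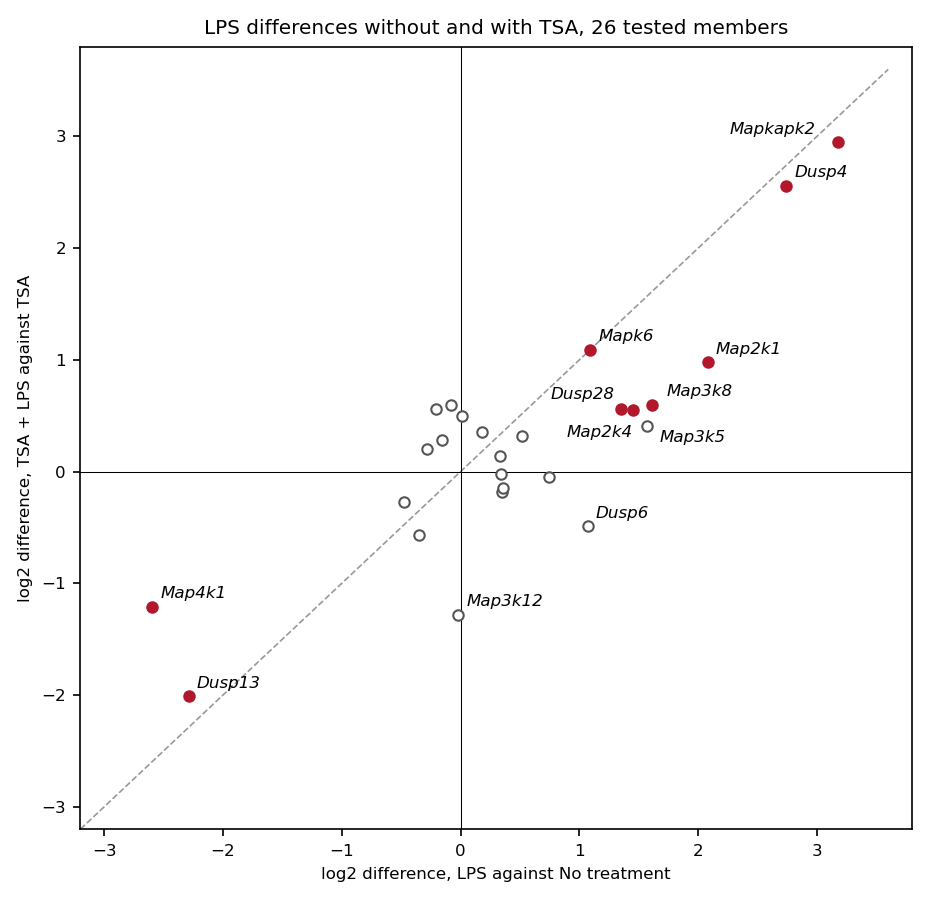
Log2 difference with LPS in the absence of TSA (horizontal axis, LPS against No treatment) and in its presence (vertical axis, TSA + LPS against TSA) for the 26 tested genes, 1 point per gene, filled red where limma called the LPS effect, with the line of equality dashed and no error bars because each value is 1 pair of arrays. Mapkapk2 and Dusp4 lie near the diagonal at upper right and Dusp13 at lower left, while Map2k1, Map3k8, Map2k4 and Map3k5 lie below the diagonal.

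TSA left most of these transcripts without a called change and lowered Map2k3 and Dusp13. Of the 26 genes 0 rose, 2 fell and 24 did not pass, with 6 at an unadjusted p under 0.05. The share called was 7.69%, against 18.5% of all genes (11.0% rose and 7.54% fell). The median TSA effect was -0.02 over the 26 and 0.01 over all genes. In the 3 pairs of arrays with and without TSA, 0 genes were higher in all 3 (27.3% of all genes) and 8 were lower in all 3 (23.1% of all genes). The 8 were Map2k3, Map2k2, Mapk14, Mapk6, Mapk7, Dusp1, Dusp3 and Dusp13. The summed level of 3 dendritic cell markers was also lower on the arrays with TSA, 11.1 to 12.7 units against 18.1 to 25, almost all of it Itgax, an integrin that macrophages also express, with Ccr7 below the floor on all 6 arrays. The eosinophil marker sum was lower too, 3.8 to 4.78 units against 4.84 to 5.97, mostly Siglecf, with Ccr3 and Epx below the median on every array. Their part in the TSA results was not tested.

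Map2k3, the p38 activator MKK3, read 3.4 without treatment and 1.23 with TSA. It read 3.84 with LPS and 1.56 with TSA + LPS, and 2.86 with GW3965 + LPS and 2 with all 3 agents. The 3 arrays with TSA were all below the 3 without it. The effect was -1.09 (SE 0.24, limma adjusted p = 0.00411), a 2.13-fold drop, lower in 3 of 3 pairs, which gave -1.47, -1.29 and -0.52. It passed under each of 15 other settings, with effects from -1.38 to -0.91 and adjusted p from 0.000471 to 0.0487.

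Dusp13 was 1.98-fold lower with TSA than without treatment, 1.64-fold lower with TSA in the LPS pair, and 1.81-fold lower in the pair with GW3965 and LPS. Only the first of these pairs held an array above its median. The effect of -0.85 (SE 0.26, limma adjusted p = 0.0308), a 1.8-fold drop, was lower in 3 of 3 pairs. It did not pass with the floor at the median (-0.33, adjusted p = 0.361) or without the No treatment (0.197), TSA (0.205), GW3965 + LPS (0.102) or TSA + GW3965 + LPS array (0.0912), over a range of 0.0159 to 0.361 in all settings.

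Several phosphatase and kinase genes lay lower with TSA in every pair without passing. Dusp3, the atypical phosphatase VHR that acts on ERK and JNK, read 1.59 without treatment against 0.793 with TSA, 1.42 with LPS against 0.964 with TSA + LPS, and 1.63 with GW3965 + LPS against 1.18 with all 3 agents. The arrays with and without TSA did not overlap, and the effect was -0.68 (SE 0.25, limma adjusted p = 0.0626). Dusp1 had an effect of -0.50 (SE 0.23, adjusted p = 0.14), with arrays of 1.58 to 2.33 with TSA and 2.47 to 2.98 without, which did not overlap either. Mapk14 had -0.50 (SE 0.24, adjusted p = 0.16), Mapk6 -0.50 (SE 0.22, adjusted p = 0.13) and Map2k2 -0.53 (SE 0.22, adjusted p = 0.0923).

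The TSA effects of transcripts that LPS raised did not pass. Mapkapk2 had -0.09 (SE 0.21, limma adjusted p = 0.813), Dusp4 0.06 (SE 0.22, adjusted p = 0.888), Map2k1 0.19 (SE 0.23, adjusted p = 0.637) and Map3k8 0.00 (SE 0.27, adjusted p = 0.998). For Map2k1 the pairs disagreed in sign, 0.89 without LPS against -0.21 and -0.13 with it, and so did those of Map3k8, 0.55 against -0.46 and -0.08. Without the No treatment or the TSA array the mean was -0.17 for Map2k1 and -0.27 for Map3k8. An adjusted p above the threshold does not show that TSA left these transcripts level. Map4k1, which LPS lowered, had a TSA effect of 0.48 (SE 0.26, adjusted p = 0.215), which was 0.90 and passed without the TSA array (adjusted p = 0.0497).

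**Figure D4:**
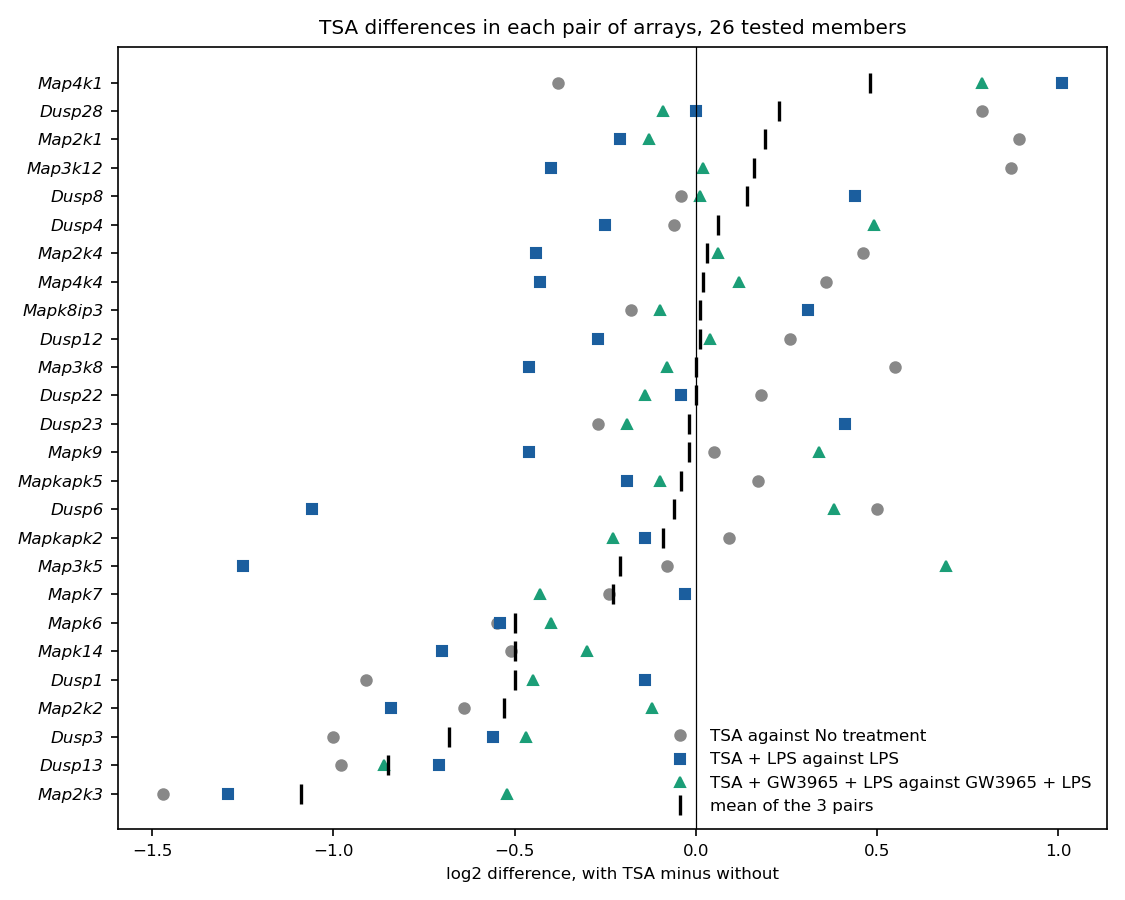
Log2 difference with TSA minus without (horizontal axis, log2 scale) in the 3 pairs of arrays for each of the 26 tested genes, 1 symbol per pair and no error bars. All 3 symbols lie left of 0 for 8 genes, among them Map2k3, and right of 0 for 0 genes.

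Single pairs gave few differences of 2-fold or more. Between TSA and No treatment 23 of the genes were measured, with 0 higher (6.98% of all genes) and 2 lower, Dusp3 and Map2k3 (4.69% of all genes). This pair shares its No treatment array with the LPS comparison. Between TSA + LPS and LPS 25 were measured, with 1 higher, Map4k1 at 2.02-fold (7.57% of all genes), and 3 lower (9.55% of all genes). These were Map2k3 at 2.45-fold, Map3k5 at 2.38-fold and Dusp6 at 2.09-fold. With GW3965 and LPS present, 25 were measured, with 0 higher (4.83% of all genes) and 0 lower (1.13% of all genes).

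For GW3965, limma called 0 of the 26 genes, against 0.0787% of all genes, and 0 had an unadjusted p under 0.05. The effects ran from -0.38 for Dusp28 to 0.62 for Dusp6 (SE 0.35, limma adjusted p = 1). Between GW3965 + LPS and LPS 25 were measured, with 0 at least 2-fold higher (0.476% of all genes) and 0 lower (1.25%). Between all 3 agents and TSA + LPS 25 were measured, with 2 higher (1.75% of all genes) and 0 lower (0.577%). Those 2 were Dusp6, at 2.35 against 0.926 (2.54-fold), and Map3k5, at 2.23 against 0.933 (2.39-fold). Without TSA the same genes were 1.07-fold and 1.6-fold lower with GW3965, so the pairs disagreed in sign, and the TSA + LPS array was the low one for both.

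The 24 genes below the median on all 6 arrays include the JNK gene Mapk8, which was below the floor on every array, as were Map3k3 and Map3k14. Another 7 were below the floor on some arrays, and 14 on 0 arrays. The highest reading among the 24 was 0.968 units. Of 12 MAP3K genes 3 reached the tests, of 3 JNK genes 1, of 4 p38 genes 1 and of 8 atypical phosphatases 6. They were not tested, and differences among such dim readings are not called. Map3k7, which encodes TAK1, the MAP3K shared by Toll-like and cytokine receptors, read 0.396 and 0.393 without LPS and 0.547 to 0.908 with it. Dusp10 and Dusp16, both directed at JNK and p38, read 0.262 to 0.407 and 0.0187 to 0.324. Dusp16 was below the floor on 4 arrays. Map3k1, which encodes MEKK1, read 0.338 to 0.598, and Map2k6, the p38 activator MKK6, was below the floor on 5 arrays.

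**Figure D5:**
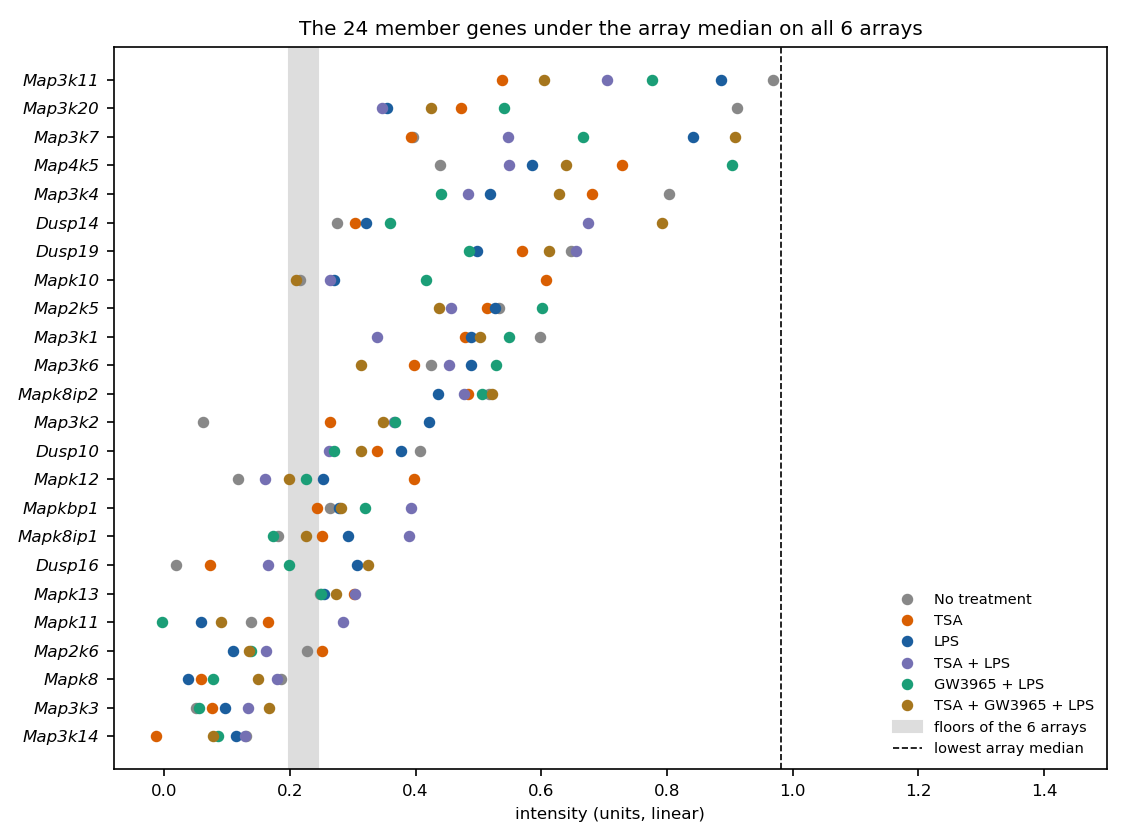
Intensity (horizontal axis, linear units) of the 24 genes below the array median on all 6 arrays, 1 symbol per array. All readings lie at or below 0.968 units, under the array medians near 1, and Mapk8, Map3k3 and Map3k14 lie below the floor on every array.

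The surrounding pathway genes were counted, as a description, from lists chosen by function with earlier results of these data known. Their counts stand beside the shares of all genes tested, 12.3% risen and 7.11% fallen for LPS and 11.0% risen and 7.54% fallen for TSA. Of 12 tested genes of Toll-like receptor and TNF signalling, adaptors and regulators alike, LPS raised 6 and lowered 0 (median 0.64, against 0.03 over all genes). Raised were Cd14, the LPS co-receptor, at 3.30 (SE 0.24), Tnip1 at 2.11 (SE 0.27), Myd88 at 1.67 (SE 0.32) and Traf2 at 1.66 (SE 0.38), among others. TSA lowered 5 of the 12 and raised 1 (median -0.20, against 0.01). Lowered were Traf2 at -1.23 (SE 0.31), Irak1 at -1.02 (SE 0.21), Myd88 at -0.96 (SE 0.26) and Tnip1 at -0.89 (SE 0.22), among others. Of 10 genes of RAS, RAF and other proteins of the cascade, kinases or not, LPS raised 2, Sos1 and Stk4, and lowered 1, Araf (median 0.30). Among the same 10, TSA raised Rras and lowered 0 (median 0.09). The 1 downstream kinase gene tested did not pass for either agent.

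Among 16 AP-1, ETS and early response factors, LPS raised 3 and lowered 3 (median 0.32), with Ets1 at 2.16 (SE 0.29) and Junb at 1.36 (SE 0.33) raised and Jun at -1.80 (SE 0.26) and Atf1 at -1.37 (SE 0.32) lowered. TSA lowered 3, Atf3, Ddit3 and Atf4, and raised 0 (median -0.13). Among 12 genes of a mixed list of regulators (Sprouty, SPRED, Gadd45, Zfp36 and others, not all of them inhibitors) LPS raised 4 and lowered 3 (median -0.08). Gadd45b (2.18, SE 0.26) and Spred1 (1.88, SE 0.38, set against the floor on both arrays without LPS) rose, and Gadd45g (-2.98, SE 0.29) and Gadd45a (-2.05, SE 0.27) fell, all genes of stress or RAS signalling. TSA lowered 3 of them, Zfp36, Gadd45g and Rasa3, and raised 0 (median -0.29). Of 12 phosphatases outside the Dusp family LPS raised Ppp1cb and lowered Ppp1cc (median 0.09), and TSA raised 0 and lowered 0 (median -0.13), with 2 at an unadjusted p under 0.05 in limma. The LPS counts of the phosphatases, 1 of 12 each way, were near the shares of all genes, 12.3% risen and 7.11% fallen.

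Of 13 tested transcripts whose stability or translation p38 and MK2 are known to control, LPS raised 10 and lowered 0 (median 2.74), beside 12.3% and 7.11% of all genes, with Il1b at 10.80 (SE 0.24), Il6 at 7.83 (SE 0.37), Cxcl1 at 6.89 (SE 0.26) and Tnf at 6.87 (SE 0.28), where Tnf was below the floor on the TSA array. TSA raised 0 and lowered 4 (median -0.60), beside 11.0% and 7.54% of all genes, Tnf at -1.24 (SE 0.23), Il6 at -1.22 (SE 0.30), Plaur at -1.02 (SE 0.23) and Zfp36 at -0.88 (SE 0.25), each with a limma adjusted p between 0.00114 and 0.0204. The Il6 value averages unlike pairs. Without LPS Il6 was below the array median, at 0.413 untreated and 0.447 with TSA. It read 180 with LPS against 52.9 with TSA + LPS, and 126 with GW3965 + LPS against 31.5 with all 3 agents. Tnf, Plaur and Zfp36 were lower with TSA in each pair. Since this list too was chosen with earlier results known, its counts are description only. The part of Mapkapk2 in these changes was not tested. GW3965 raised or lowered 0 genes of any of the pathway lists in limma, with 0 to 2 genes per list at an unadjusted p under 0.05.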

How the data were processed

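Total RNA of 6 samples was labelled with biotin and read on 6 single-colour arrays, per the labels' protocols. The authors deposited 1 intensity value per probe and array, on a linear scale with array medians of 0.981 to 0.987 and 19 to 28 values at or below 0 per array. The scaling method is not given in the sources used here. Values below each array's 25th percentile were set to it, log2 was taken, and a gene with several probes was read from the one with the highest mean. Genes at or above the array median on at least 1 array (5080 of 8841) were fitted with limma 3.58.1 in R 4.3.3 (lmFit, eBayes with an intensity trend) as LPS + GW3965 + TSA, with 2 residual and 16.92 prior degrees of freedom. The fit was tested on simulated data. The small number of arrays limits the precision. Members and lists were chosen with earlier results of these data known. Named are genes called in any fit, genes 2-fold apart in any pair, central cascade genes by symbol, and at most 4 called genes farthest from 0 per pathway list and contrast. Alternatives varied the scaling, floor, filter, probe rule, trend and arrays. Python 3.11.15 was used for counting.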

Additional observations from a re-analysis of the deposited data

How the results depend on the processing

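No paired analysis was possible because each group has 1 array, so that groups share fewer than 2 replicate numbers. The count of genes called for LPS was 9 and stayed at 9 under quantile or cyclic loess scaling, a floor at the 10th percentile, a filter on 2 arrays, averaged or separate probes and no intensity trend. It was 6 with the floor at the median, 11 with no filter, and 5 to 11 when an array was left out, lowest without No treatment and highest without TSA + LPS. The count over all genes moved with it, from 987 to 650, 1266, 583 and 1164 in those 4 settings. For TSA the count was 2 and ran from 1 to 4 when an array was left out, with Dusp1 and Dusp3 added without the LPS or the TSA + LPS array and Map4k1, as a rise, without the TSA array. Dusp3 was also added with no intensity trend or the floor at the median (in place of Dusp13), and Dusp14 with no filter. For GW3965 the count was 0 and ran from 0 to 1, the 1 being Dusp6 without the LPS array (1.37, adjusted p = 0.0169). The interaction gave 0 under each setting run, and could not be fitted with an array left out, since no residual degrees of freedom remain. Without the TSA + LPS array, Dusp6 (1.04, adjusted p = 0.012) and Map3k5 passed for LPS. Map3k5 also passed with no filter and without GW3965 + LPS or TSA + GW3965 + LPS, and Map3k12 without the LPS array. Of 165 values of the 11 effects that passed, 149 kept their call and 16 lost it, and none of the 11 changed sign. Quantile scaling moved the median LPS effect of all genes from 0.03 to -0.11 and the split of all genes from 626 risen and 361 fallen to 543 and 557, with 7 and 2 among the members both times. With a 3-fold instead of a 2-fold limit the pair counts fell from 11 to 6 (LPS against No treatment), 6 to 3 (TSA + LPS against TSA), 2 to 0 (TSA against No treatment), 4 to 0 (TSA + LPS against LPS) and 2 to 0 (all 3 agents against TSA + LPS). With a 1.5-fold limit they were 8 for TSA against No treatment, 2 for all 3 agents against GW3965 + LPS, 1 for GW3965 + LPS against LPS and 4 for all 3 agents against TSA + LPS. TSA against No treatment gave 1 under cyclic loess and 1 with the floor at the median. When an array is left out, a lone array is assumed to vary like the others, and the cause of a changed call was not tested. Those fits had infinite prior degrees of freedom, against 16.92 in the main fit. Their p-values thus rest on another estimate of the variance, and a call can change through that. Readings near the floor cannot show a difference.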
